A study of Mus musculus with 20 samples.

Results

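The translation factors described here are the 66 genes of the 23284 in the deposited count table whose symbols begin with Eif1 to Eif6 or with Eef1 or Eef2, the mouse names for eukaryotic initiation and elongation factors. They were chosen by name and not by any measured value. For 4 of them, Eif2c1 to Eif2c4, the symbol is an older name of an Argonaute gene (Ago1 to Ago4 in RefSeq); these bind small RNAs and are no initiation factors, so values are also given without them. RNA was sequenced from DN3 thymocytes, early T cell precursors of the thymus that depend on the receptor Notch1, sorted from C57BL/6 mice in 20 libraries and 6 groups. MxCre mice carried the Cre recombinase under the interferon-inducible Mx1 promoter, DeltaMxCre mice (MxCreZmiz1f/f) carried it with floxed Zmiz1, and both received 5 injections of 40 mcg pI-pC, 2 days apart, with cells taken at 8 weeks (3 mice per group). TamCre mice carried Rosa26CreERT2, a Cre made in nearly all cells and switched on by tamoxifen, DeltaTamCre mice (Rosa26CreERT2Zmiz1f/f) carried it with floxed Zmiz1, and both received 0.2 mg/g tamoxifen 43 to 44 h before sorting (4 mice per group). AntiNRR and IgG mice received 10 mg/kg of an anti-NRR antibody, which blocks Notch1 signalling by holding the receptor's NRR domain closed, or of its isotype control, 24 h before sorting, with 3 libraries each and no Cre named in the labels. Neither Cre is limited to thymocytes. The sources used here state neither the age of the mice nor how many mice the antibody libraries came from; p-values for the antibody groups therefore measure the spread between libraries, which may be technical.

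Initiation begins when eIF2, a GTP-binding trimer, carries the initiator tRNA to the small ribosomal subunit together with eIF1, eIF1A, eIF3 and eIF5. The eIF4F complex (the cap-binding protein eIF4E, the helicase eIF4A and the scaffold eIF4G) brings the mRNA to that subunit, eIF2B recharges eIF2 with GTP, and kinases that phosphorylate eIF2, or proteins that bind eIF4E, hold initiation back. During elongation eEF1A delivers aminoacyl-tRNAs, the eEF1B subunits recharge it, eEF2 moves the ribosome along the mRNA, and eIF5A relieves stalled ribosomes. Many genes of this machinery are known targets of the transcription factor Myc, and Myc is itself a target of Notch1 in T cell precursors.

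Libraries of the MxCre, DeltaMxCre, IgG and AntiNRR groups were made with the SMARTer Ultra low input kit and held 11695668 to 19133149 counts; those of TamCre and DeltaTamCre were made with the TruSeq mRNA v2 kit and held 52615332 to 101425251. Kit and model cannot be told apart, so levels are compared within a kit only. Levels below are in CPM, counts scaled to library size after TMM normalization. Zmiz1 lay at 116 to 132 CPM in DeltaMxCre against 298 to 360.4 in MxCre and at 169 to 220.3 in DeltaTamCre against 272 to 324 in TamCre, and the Notch target Dtx1 lay at 4.95 to 15.8 CPM in AntiNRR against 162 to 191 in IgG. These 3 falls passed the test (edgeR quasi-likelihood test, adjusted p = 1.15e-08, 0.0405 and 0.000311). Myc was lower in all 3 comparisons, by 0.86, 0.99 and 0.42 on the log2 scale in DeltaMxCre, AntiNRR and DeltaTamCre, without passing the test (edgeR adjusted p = 0.151, 0.0927 and 0.133). Dtx1 did not go down in the Zmiz1 models. It was at 356 to 386 CPM in DeltaMxCre against 138 to 192 in MxCre (log2 fold change 1.12, edgeR adjusted p = 0.1). In DeltaTamCre it was at 449 to 590 CPM against 403 to 528 in TamCre (0.24, edgeR adjusted p = 0.302). The labels' gate reads CD44+ and CD25-, the reverse of textbook DN3 cells, whereas Il2ra, which encodes CD25, was at 543 CPM or more and Cd44 at 7.23 CPM or less in all 20 libraries. Of 6 DN3 markers, Il2ra, Ptcra and Notch1 fell in AntiNRR, and Rag1 fell in DeltaMxCre, where Cd44 and Bcl11a, markers of earlier progenitors, also fell. Summed B cell markers were at most 0.836 CPM in IgG and 0 in AntiNRR.

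Promoter sequence is shown first for the factor genes whose mRNA fell in a comparison and whose promoter holds CACGTG, the E-box that Myc and several related factors bind. RefSeq promoters (GRCm38.p6, the mm10 build; 250 bases before to 50 after the start) were at hand for 52 of the 66 genes, and both strands are covered by 1 search because CACGTG is its own reverse complement. It was present in 12 of these 52 genes (23.1%), in 8.09% of all 27025 genes with a promoter and in 11.3% of the 10718 such genes tested in the SMARTer libraries. Among the 8 factor genes with a promoter that fell in at least 1 comparison, 4 held it; the other 8 that held it (Eif1b, Eif3a, Eif3f, Eif3k, Eif4e, Eif4h, Eif5a2 and Eef2k) did not pass the test in any. Windows of 60 bases, 5′ to 3′ on the strand of the gene and with the E-box in capitals, are given for these 4:
Eef2 (chr10:81176561-81176620, plus strand, E-box 43 bases before the start): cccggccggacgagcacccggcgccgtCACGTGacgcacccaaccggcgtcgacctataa
Eif4a1 (chr11:69672580-69672639, minus strand, 189 before): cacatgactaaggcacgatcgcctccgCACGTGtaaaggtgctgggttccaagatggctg
Eif5a (chr11:69921428-69921487, minus strand, 74 before 1 of its annotated starts; another E-box window of Eif5a is not shown): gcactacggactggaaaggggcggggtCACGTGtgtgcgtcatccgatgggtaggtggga
Eif4g1 (chr16:20672646-20672705, plus strand, 54 before; a further E-box 15 bases after the start is not shown): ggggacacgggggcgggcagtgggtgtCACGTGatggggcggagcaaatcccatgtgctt
All 4 windows lie upstream of an annotated start. A match describes the sequence and shows no binding.

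The factors spanned more than 3 orders of abundance in control cells. On the scale that allows for transcript length (FPKM, group values of the authors' deposited table, which lists 65 of the 66 genes), Eef1a1, the tRNA-delivering elongation factor, was the highest of the 65 in each control group, at 3915 FPKM in MxCre, 3532 in IgG and 6890 in TamCre in the authors' deposited table. It was followed in MxCre and IgG by Eef2, the translocase, at 1107 and 1031 FPKM, and by the helicase gene Eif4a1 at 716 and 642 FPKM in the authors' deposited table. Subunits of one complex were not equal at the RNA level: in the authors' deposited table eIF3 subunits in MxCre ran from 80.7 FPKM (Eif3g) to 321 (Eif3e) around a median of 138, and the eIF4F genes from 28.1 (Eif4g3) to 716 (Eif4a1). The eIF2B genes, which encode the exchange factor of eIF2, were lower, with a median of 21.4 FPKM in MxCre, 16.8 in IgG and 36.2 in TamCre in the authors' deposited table.

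**Figure D1:**
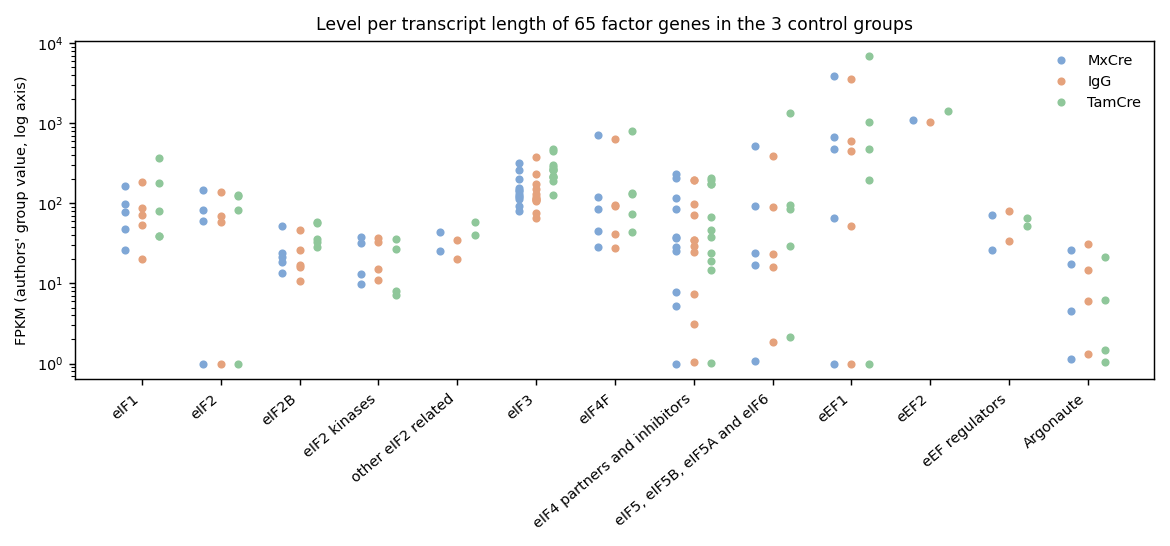
Level per transcript length (FPKM, log axis, group values of the authors' deposited table) of 65 factor genes in the control groups MxCre, IgG and TamCre, arranged by complex; each point is 1 gene. Eef1a1 is the highest point in each group (3915, 3532 and 6890 FPKM), and 1.0 is the lowest value the table holds.

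Counts of some paralogs were at 0. The Y-linked eIF2 gamma gene Eif2s3y and the eEF1A paralog Eef1a2, known from muscle and neurons, had 0 counts in all 20 libraries, which allows at most 0.254 CPM in the shallowest SMARTer library and 0.0551 CPM in the shallowest TruSeq library (3 counts, counting error only). Xist was at 658 CPM or more in every library and the other Y-linked genes read, Ddx3y, Kdm5d and Uty, were at 0.12 CPM or less, so Eif2s3y was low together with them. Eif2s3x, the X-linked copy, lay between 318 and 625 CPM in the SMARTer libraries. Eif4e1b, an eIF4E relative of oocytes, had at most 4 counts in any library. These 3 genes did not pass the filter on low counts, so 63 of the 66 were tested in every main fit.

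After 24 h of Notch1 blockade with the anti-NRR antibody, mRNAs of factors from several steps of initiation fell. Of the 63 tested factor genes, 7 fell, 0 rose and 56 did not pass the test in AntiNRR against IgG (edgeR quasi-likelihood test, Benjamini-Hochberg adjusted p under 0.05 over 13557 genes; 4.06% of all tested genes were called, 2.4% as falls and 1.66% as rises; among the 3967 genes at or above the factors' lower quartile of CPM 4.94% fell, and 6 of the 47 factor genes among them). Those that fell were Eif1a (eIF1A), Eif2s1 (the alpha subunit of eIF2, the site of its inhibitory phosphorylation), Eif3b (a core eIF3 subunit), Eif4a1 and Eif4g1 (helicase and scaffold of eIF4F), Eif5a and Eef1e1, which encodes a small scaffold protein of the tRNA synthetase complex. At an unadjusted p under 0.05 there were 22, of which 21 were lower; over all genes 16.3% had such a p, 9.03% on the lower side. The median log2 fold change of the 63 was -0.16 (-0.22 without the Argonaute genes) against -0.02 for all genes, 47 of them (74.6%) were below 0 against 51.7% of all genes, and in 22 every AntiNRR library lay below every IgG library against 11.3% of all genes, with 2 in the opposite order against 10.3%.

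Eif2s1 was at 173, 169 and 152 CPM in the IgG libraries and at 122, 98.0 and 120.4 CPM in the AntiNRR libraries. The groups did not overlap, and its log2 fold change was -0.54 ± 0.14 (SE; edgeR adjusted p = 0.0245). Eif1a went from 99.9, 118 and 119.8 CPM in IgG to 83.3, 63.4 and 65.9 in AntiNRR, with no overlap and a log2 fold change of -0.67 ± 0.15 (SE; edgeR adjusted p = 0.00841). Eif1a and its X-linked relative Eif1ax encode nearly the same protein, and the sources used here do not say how the authors' counting divided reads between them.

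In eIF4F the helicase gene Eif4a1 and 1 of 2 scaffold genes, Eif4g1, fell. Eif4a1 was at 1351, 1298 and 1179 CPM in IgG and at 980.4, 946 and 904 in AntiNRR (log2 fold change -0.44 ± 0.11 SE, edgeR adjusted p = 0.0166). Eif4g1 was at 609.7, 625 and 569 CPM in IgG and at 440.5, 457 and 493 in AntiNRR (-0.38 ± 0.11 SE, edgeR adjusted p = 0.0389). In both genes every treated library lay below every control library. The cap-binding gene Eif4e did not pass the test although its groups did not overlap either, at 103 to 106 CPM in IgG and 83.5 to 87.4 in AntiNRR (-0.30 ± 0.14 SE, edgeR adjusted p = 0.293). The second helicase gene Eif4a2, which overlaps Rfc4 on the opposite strand, was at 179 to 193 CPM in IgG and 115 to 176 in AntiNRR (-0.34 ± 0.19 SE, edgeR adjusted p = 0.412). The other scaffold gene, Eif4g3, overlapped at 182 to 206 and 182 to 209 CPM, a log2 difference of 0.01 with a 95% interval from -0.26 to 0.28.

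Eif3b was at 341, 342 and 324 CPM in IgG and at 216, 236 and 265 in AntiNRR, without overlap (-0.49 ± 0.12 SE, edgeR adjusted p = 0.0152). It was the one eIF3 gene of 13 to pass the test, although 12 of the 13 were below 0. Its partner Eif3a, the largest subunit, was at 565 to 574 CPM in IgG and 409 to 481 in AntiNRR and missed the threshold (-0.36 ± 0.11 SE, edgeR adjusted p = 0.0564). Eif3h, a non-core subunit, lay at 242 to 315 CPM in IgG and 245 to 276 in AntiNRR, a log2 difference of -0.06 with a 95% interval from -0.29 to 0.18.

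Eif5a, the factor that relieves stalled ribosomes, was at 547, 521 and 474 CPM in IgG and at 323, 323 and 430.5 in AntiNRR, with 1 treated library nearer the controls but no overlap (-0.52 ± 0.13 SE, edgeR adjusted p = 0.0223). Eef1e1 had the largest difference of the 7, from 27.2, 23.9 and 22.9 CPM to a range of 5.92 to 14.5 without overlap (-1.18 ± 0.32 SE, edgeR adjusted p = 0.0276), at 70 to 521 counts per library. Of the elongation factors, Eef2, the translocase, was at 3885, 3364 and 3258 CPM in IgG and at 3366, 3450.1 and 3530.3 in AntiNRR, overlapping groups with a log2 difference of -0.02 and a 95% interval from -0.24 to 0.19. Eef1a1 was at 5383 to 6256 CPM in IgG and 4626 to 4779 in AntiNRR, and the other eEF1 genes tested (Eef1b2, Eef1d and Eef1g, the eEF1B subunits) likewise had no overlap, with log2 fold changes of -0.28 to -0.40 and none past the threshold. Eef2k, the kinase that inhibits eEF2, lay higher, at 376 to 414 CPM against 315 to 342, also without passing the test (0.27 ± 0.12 SE, edgeR adjusted p = 0.223).

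The 7 calls rested on few libraries. Without IgG 2 or without AntiNRR 2, the shallowest library, none of the 63 passed (edgeR), and without IgG 1 only Eif1a did. Without IgG 3, AntiNRR 1 or AntiNRR 3 there were 4, 5 and 4 calls, and Eif2s1 was among them each time. Over all genes, leaving out 1 of the 12 SMARTer libraries gave 257 to 817 calls, beside 551 with all 12. Calls were therefore lost outside the factor genes too. DN3 markers differed between the same groups, with a summed level of 7207 to 7901 CPM in AntiNRR and 12796 to 12959 in IgG (3 of 6 fell). The 3 were Il2ra, from a mean of 3544 CPM in IgG to 656 in AntiNRR, Ptcra, from 214 to 71.2, and Notch1, from 3017 to 2075. Rag1, at 4815 and 3752 CPM, was not called. The sum of 5 earlier-progenitor markers was 193 to 236 CPM in AntiNRR against 133 to 157 in IgG. The latter sum was mostly Kit, which rose from a mean of 103 to 184 CPM; Bcl11a was at 36.1 and 26.5 CPM, Cd44 at 2.57 and 2.95, Flt3 at 0 and 0.405 and Hoxa9 at 0.348 and 0, none of them called. Of the natural killer and gamma-delta markers, Ncr1 and Klrb1c had 0 counts in every IgG and AntiNRR library, and Sox13, at 46.5 to 66.1 CPM in IgG and 90.1 to 109.9 in AntiNRR, was not called. The part of such shifts in the factor genes was not tested, and in bulk RNA fewer cells of a type and less RNA per cell cannot be told apart.

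At 8 weeks after Zmiz1 deletion in the MxCre model, the mRNAs of eEF1A, eEF2 and the main eIF4A helicase fell. In DeltaMxCre against MxCre, 3 of the 63 tested factor genes fell, 1 rose and 59 did not pass the test (2.94% of all 13557 genes were called, 1.27% as falls and 1.67% as rises; among the 3617 genes at or above the factors' lower quartile of CPM 2.29% fell, and 3 of the 47 factor genes among them). The 3 that fell, Eef1a1, Eef2 and Eif4a1, were the 3 most abundant factor genes in MxCre by FPKM in the authors' deposited table. The one that rose was the Argonaute gene Eif2c3. At an unadjusted p under 0.05 there were 23, of which 21 were lower; over all genes 16.5% had such a p, 8.71% on the lower side. The median log2 fold change was -0.23 (-0.24 without the Argonaute genes) against -0.03 for all genes, 52 of 63 (82.5%) were below 0 against 53.3%, and in 17 the groups did not overlap on the lower side against 10.8% of all genes, and in 2 on the higher side against 10.2%.

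Eef1a1 was at 6218, 5896 and 7437 CPM in MxCre and at 5464, 4406 and 4433 in DeltaMxCre, with a log2 fold change of -0.45 ± 0.11 (SE; edgeR adjusted p = 0.0244). Eef2 went from 3297, 3626 and 4283 CPM to 3064, 2659 and 2757 (-0.40 ± 0.11 SE, edgeR adjusted p = 0.0419). Eif4a1 went from 1367, 1375 and 1603 CPM to 1193, 1021 and 992 (-0.44 ± 0.11 SE, edgeR adjusted p = 0.0213). In all 3 genes the groups did not overlap, MxCre 3 was the highest control and DeltaMxCre 1 the closest deleted library. Processed copies of such abundant genes exist in the genome, and the sources used here do not say how reads shared with them were counted.

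The eEF1 subunits lay lower by similar amounts. Eef1b2, Eef1d and Eef1g, which recharge eEF1A, had log2 fold changes of -0.41, -0.41 and -0.38 beside -0.45 for Eef1a1; the edgeR adjusted p-values of these 3 were 0.141, 0.088 and 0.0608, so they did not pass. Eef1d was at 126, 111 and 125 CPM in MxCre and 97.6, 83.8 and 89.6 in DeltaMxCre, without overlap. Neither regulator passed the test: Eef2k was at 281 to 328 CPM in MxCre and 278 to 378 in DeltaMxCre (0.06, 95% interval -0.17 to 0.29), and Eef1e1 at 16.2 to 22.6 and 13.7 to 29.3.

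None of the 13 eIF3 genes passed, yet all 13 had log2 fold changes below 0, with a median of -0.32, and 8 had an unadjusted p under 0.05. Eif3h was at 285 to 358 CPM in MxCre and 235 to 269 in DeltaMxCre (-0.33 ± 0.12 SE, edgeR adjusted p = 0.152). Eif3b was at 325 to 438 and 280.1 to 341 (-0.31 ± 0.12 SE, edgeR adjusted p = 0.163). Eif3a had the smallest difference of the 3, at 585 to 649 CPM against 538 to 665 (-0.05, 95% interval -0.26 to 0.16).

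In eIF4F, Eif4g1 was at 805, 702 and 824 CPM in MxCre and 675, 582 and 621 in DeltaMxCre without overlap, and did not pass (-0.31 ± 0.11 SE, edgeR adjusted p = 0.112). Eif4e was at 97.0 to 145 CPM against 89.6 to 109 (-0.27 ± 0.14 SE, edgeR adjusted p = 0.337). Eif4a2 was not lower, at 123 to 211 CPM against 161 to 232, with a log2 difference of 0.10 and a 95% interval from -0.27 to 0.48. The eIF4E-binding repressors showed no call: Eif4ebp2 was at 71.7 to 85.7 CPM against 71.6 to 82.2, and Eif4ebp1 was low, at 2.71 to 10.5 CPM against 2.87 to 4.05.

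None of the eIF2 genes passed. Eif2s1 was at 193, 176 and 275 CPM in MxCre and 194, 183 and 184 in DeltaMxCre, so that MxCre 3 alone lay apart (-0.20 ± 0.14 SE, edgeR adjusted p = 0.544). Eif2s3x had the same shape, at 413, 460.4 and 625 CPM against 461, 474 and 406 (-0.16 ± 0.14 SE, edgeR adjusted p = 0.639). Around eIF2, the amino-acid sensing kinase Eif2ak4 (GCN2) was at 50.5 to 58.0 CPM in MxCre and 33.9 to 37.7 in DeltaMxCre without overlap (-0.56 ± 0.18 SE, edgeR adjusted p = 0.0928). Eif2b3, the gamma subunit of the exchange factor, was at 21.2 to 40.1 CPM against 15.2 to 19.4 (-0.74 ± 0.30 SE, edgeR adjusted p = 0.202). Eif5a was at 595 to 795 CPM against 473 to 646 and Eif6, which keeps the ribosomal subunits apart, at 33.5 to 43.3 against 25.4 to 43.9; neither passed.

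The Argonaute gene Eif2c3 was at 26.6, 38.2 and 29.1 CPM in MxCre and at 50.1, 66.2 and 53.1 in DeltaMxCre, every deleted library above every control (0.85 ± 0.20 SE, edgeR adjusted p = 0.0154). Here too calls rested on single libraries. Over all genes, leaving out 1 of the 12 SMARTer libraries gave 138 to 434 calls, beside 399 with all 12. Without MxCre 1 Eif2c3 was not called and without MxCre 2 Eef2 was not. Without MxCre 3 none of the falls passed and Eif2c3 rose together with Eif4e3, an eIF4E relative (2 calls); without DeltaMxCre 2 none of the 63 passed, and without DeltaMxCre 3 only Eif2c3 did. Across 63 factor genes MxCre 3 had a median of 0.11 above the MxCre mean on the log2 scale, and MxCre 2 of 0.10 below it (-0.10), against -0.13, -0.32 and -0.29 in the deleted libraries. MxCre 3 also had the lowest Myc of its group, at 106 CPM beside 237 and 135. By contrast DeltaMxCre 1, the deleted library with its factor median nearest the controls, had the highest Myc of its group. It was at 108 CPM beside 76.7 and 79.1. The relation of Myc to these medians was not tested. The summed DN3 markers overlapped, at 9697 to 12195 CPM in MxCre and 10327 to 12198 in DeltaMxCre, as did the earlier-progenitor markers, at 99.8 to 141 and 107 to 137 CPM; the part of the marker genes that fell (Rag1, Cd44, Bcl11a) was not tested.

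**Figure D2:**
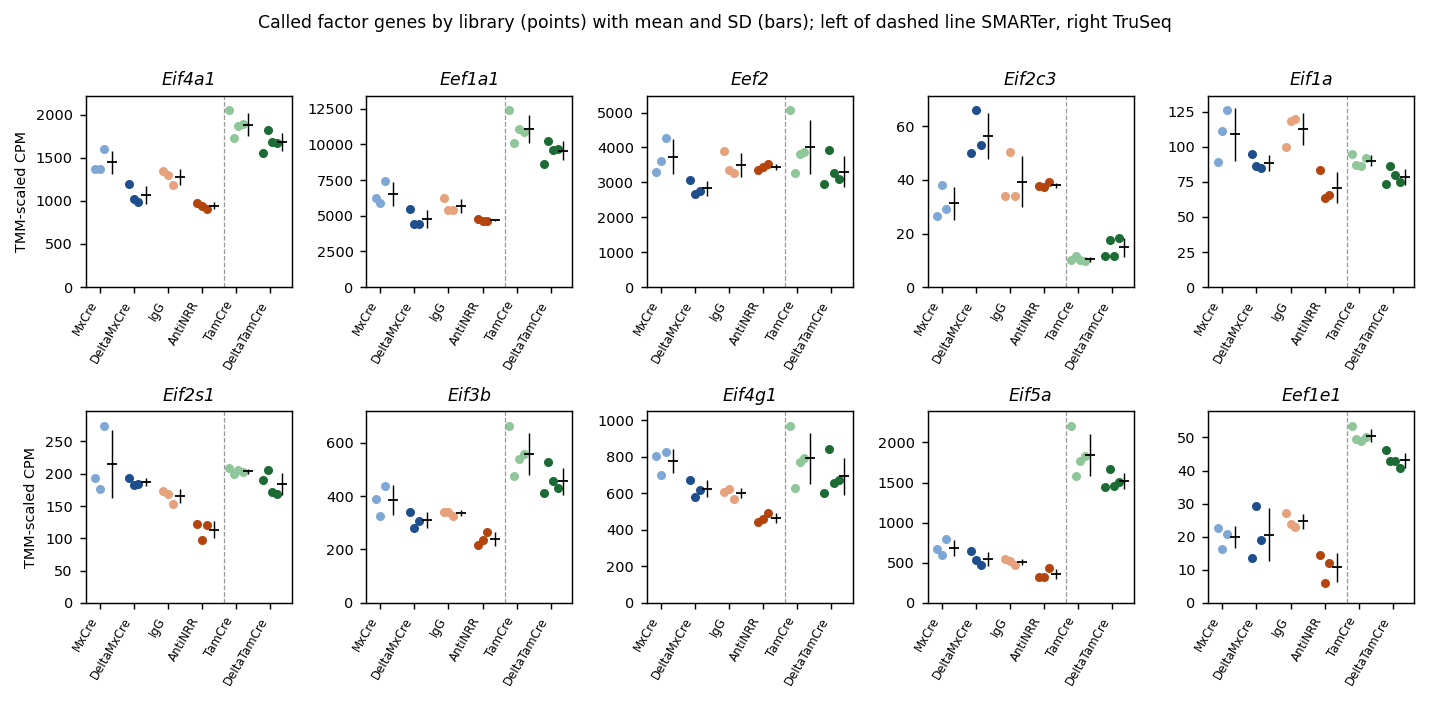
TMM-scaled CPM per library (points) of the 10 factor genes called in a comparison, with the group mean and SD beside them; the dashed line divides the SMARTer groups (left, n = 3 each) from the TruSeq groups (right, n = 4 each), between which levels are not compared. Eif4a1 is the one gene called in both SMARTer comparisons, and Eef2 in AntiNRR (3366 to 3530.3 CPM) lies within the IgG range of 3258 to 3885.

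Early after Zmiz1 deletion, in the TamCre model, no factor gene passed the test. In DeltaTamCre against TamCre, 0 of the 63 rose or fell (edgeR; 0.0892% of 13460 genes were called, 0.0594% as rises and 0.0297% as falls), and 25 had an unadjusted p under 0.05, of which 23 were lower (16% of all genes had such a p, 7.96% on the lower side). DESeq2 called 5 falls: Eif3g, Eif3i, Eef1b2, Eef1d and Eef1e1. Over all genes DESeq2 called 533 in this comparison, beside 12 with edgeR. The median log2 fold change of the 63 was -0.14 (-0.15 without the Argonaute genes) against 0.02 for all genes. Of the 63, 52 (82.5%) were below 0 against 46.2% of all genes, and in 14 the groups did not overlap on the lower side against 5.75% of all genes, with 2 on the higher side against 4.84%. Abundant genes as a whole leaned lower here. Among the 3044 genes at or above the factors' lower quartile of CPM, 58% were below 0, with a median of -0.03. No marker of DN3 cells, earlier progenitors or other lineages was called.

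Eef1d had the smallest p, at 357, 288, 302 and 317 CPM in TamCre and 237, 272, 240.0 and 261 in DeltaTamCre (-0.32 ± 0.08 SE, edgeR adjusted p = 0.142). Eif3g, an RNA-binding eIF3 subunit, was at 255, 214, 219 and 228 CPM against 173, 183, 196 and 201 (-0.28 ± 0.08 SE, edgeR adjusted p = 0.153). In both genes the groups did not overlap. Eif4ebp1, an eIF4E-binding repressor, was lower too, at 12.6 to 18.9 CPM against 9.60 to 12.9 with overlap (-0.45 ± 0.15 SE, edgeR adjusted p = 0.188), whereas Eif4ebp2 was at 121 to 176 and 115 to 165 CPM.

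The genes that fell in the SMARTer comparisons lay lower here too. They were picked by passing there and no difference of effects passed, so the sizes are not compared. Eif4a1 was at 2056, 1728, 1866 and 1888 CPM in TamCre and 1558, 1816, 1682 and 1666 in DeltaTamCre, with DeltaTamCre 2 inside the control range (-0.17 ± 0.08 SE, edgeR adjusted p = 0.317). Eef1a1 was at 10062 to 12423 CPM against 8637 to 10239 (-0.22 ± 0.08 SE, edgeR adjusted p = 0.224), and Eef2 at 3263 to 5078 against 2947 to 3940.3 (-0.28 ± 0.13 SE, edgeR adjusted p = 0.335). Eif5a was at 1583 to 2211 CPM against 1442 to 1668 (-0.28 ± 0.10 SE, edgeR adjusted p = 0.212). In the last 3 genes the groups overlapped. All 5 eIF2B genes had an unadjusted p under 0.05 on the lower side, with a median of -0.22 and 4 of them without overlap; Eif2b3 was at 33.3 to 38.6 CPM against 29.4 to 32.3 (-0.22 ± 0.08 SE, edgeR adjusted p = 0.2).

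The remaining members named above were at the following levels. Eif2s1 was at 199 to 209 CPM in TamCre and 168 to 206 in DeltaTamCre (-0.15 ± 0.08 SE), Eif3a at 522 to 593 and 481 to 636, Eif3b at 474 to 664 and 411 to 527, and Eif3h at 427 to 445 and 382 to 413, the last without overlap. Eif3b and Eif6 had log2 fold changes of -0.29 ± 0.11 and -0.24 ± 0.10 (SE), close to those of Eif5a and Eef1a1. Eif4e was at 154 to 172 and 141 to 156 CPM, Eif4g1 at 631 to 971 and 604 to 841, Eif4a2 at 242 to 379 and 245 to 399, and Eif6 at 113 to 159 and 101 to 117. Eef2k was at 266 to 274 and 229 to 288 CPM and Eif2ak4 at 33.7 to 37.8 and 32.7 to 35.2. None of these passed the test. Eif2c3 was higher, at 9.59 to 11.5 CPM against 11.7 to 18.4, without overlap and without passing (0.52 ± 0.16 SE, edgeR adjusted p = 0.171).

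**Figure D3:**
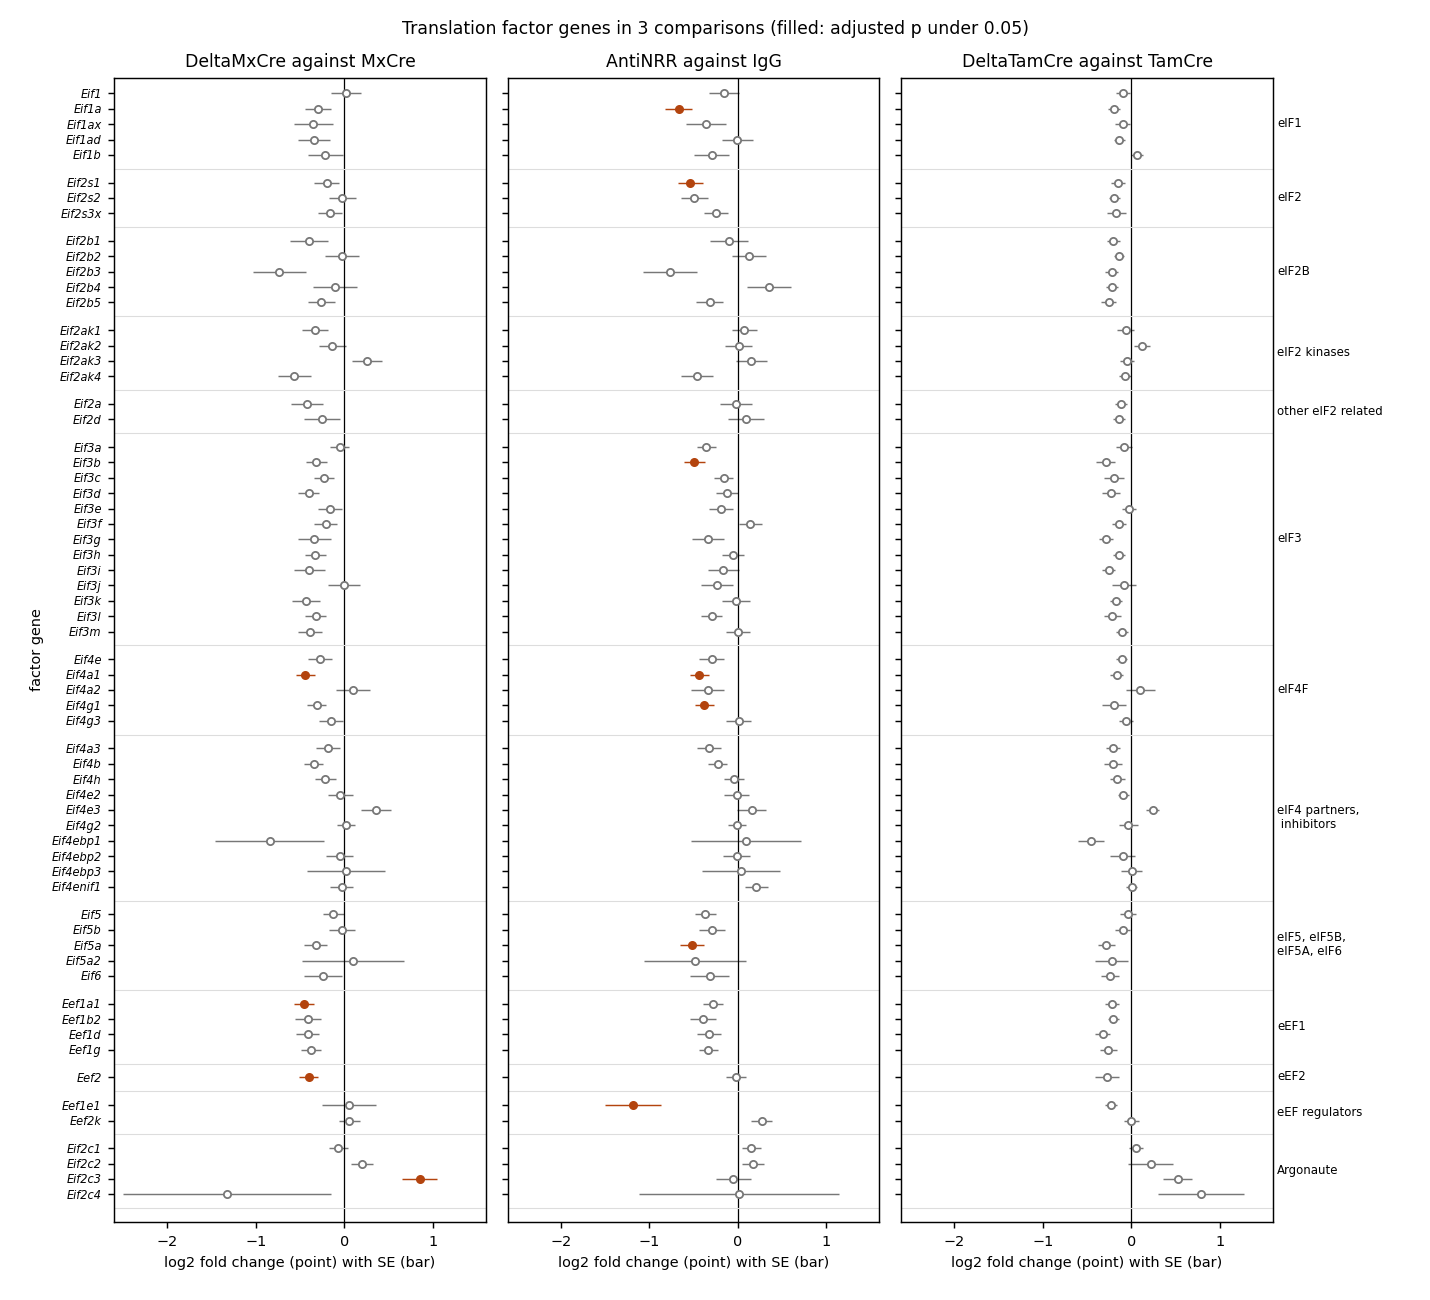
Log2 fold change (point) and its SE (bar) of the 63 tested factor genes in the 3 comparisons, ordered by complex; filled points have an edgeR adjusted p under 0.05. There are 4 filled points in DeltaMxCre, 7 in AntiNRR and 0 in DeltaTamCre, and 52, 47 and 52 of the 63 points lie below 0.

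Read library by library, the shift was not shared evenly. Taken as the median over the 63 genes of the log2 difference from the control mean, AntiNRR libraries lay at -0.13, -0.17 and -0.17, below all 3 IgG libraries, which lay between -0.05 and 0.07. DeltaTamCre 1, 3 and 4 lay between -0.18 and -0.19, but DeltaTamCre 2 lay at -0.04, within the TamCre range of -0.09 to 0.08. The same median over all tested genes stayed between -0.03 and 0.02 in every library. The SD of these library medians within groups was 0.101 in the MxCre, 0.0478 in the antibody and 0.0728 in the TamCre comparison.

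**Figure D4:**
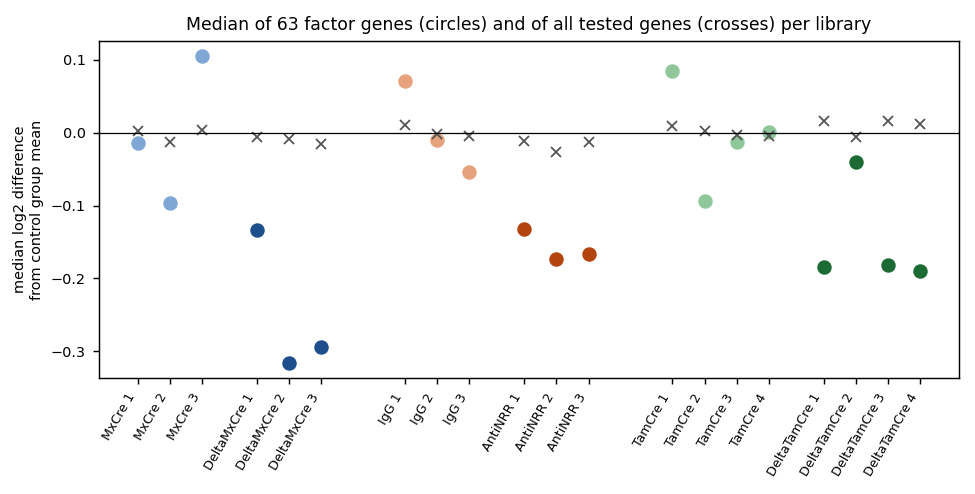
Median log2 difference from the control group mean over the 63 tested factor genes (circles) and over all tested genes (crosses) in each library. Factor medians reach -0.32 in DeltaMxCre 2, while DeltaTamCre 2 (-0.04) lies among the TamCre libraries.

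The 4 complexes can be set side by side; their order was not tested. By median log2 fold change, DeltaMxCre had eEF (eEF1 and eEF2, -0.41) lowest, then eIF3 (-0.32), eIF4F (-0.27) and eIF2 (-0.16, or 0.04 without MxCre 3). AntiNRR had eIF2 (-0.49) lowest, then eIF4F (-0.34), eEF (-0.33) and eIF3 (-0.16). DeltaTamCre had eEF (-0.26) lowest, with eIF3 (-0.17), eIF2 (-0.17) and eIF4F (-0.11) close together. The medians of DeltaMxCre and AntiNRR come from 1 fit with a shared estimate of spread but from different control libraries.

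Summed over subunits, eIF4F lay at 2070 to 2341 CPM in DeltaMxCre against 2587 to 2854 in MxCre and at 1788 to 1862 in AntiNRR against 2249 to 2426 in IgG, so neither pair of groups overlapped. The eEF sum lay at 8386 to 10256 CPM in DeltaMxCre against 11292 to 13651 and at 9343 to 9512 in AntiNRR against 10245 to 12014, also without overlap. The same held for eIF3, at 2772 to 3119 CPM in DeltaMxCre against 3173 to 3750 in MxCre. In AntiNRR the eIF3 sum lay at 2615 to 2844 CPM against 2958 to 3355 in IgG. Such sums weigh abundant genes most, as Eif4a1 (1179 to 1351 CPM in IgG) does in eIF4F. For eIF2 the sum in AntiNRR, 527 to 630 CPM, lay below all IgG libraries (680.5 to 745), while in DeltaMxCre 716 to 771 CPM lay within the MxCre range of 710.1 to 1044, whose highest value is MxCre 3. In the TamCre model the groups overlapped for all 4 complexes, for example at 2951 to 3330.4 against 3143 to 3743 CPM for eIF4F. All 66 genes together summed to 19758 to 22785 CPM in DeltaMxCre against 23913 to 28237 in MxCre and to 19673 to 20262 in AntiNRR against 21759 to 24429 in IgG, without overlap in either, and to 27950.1 to 33121 in DeltaTamCre against 30906 to 38772 in TamCre, with overlap.

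**Figure D5:**
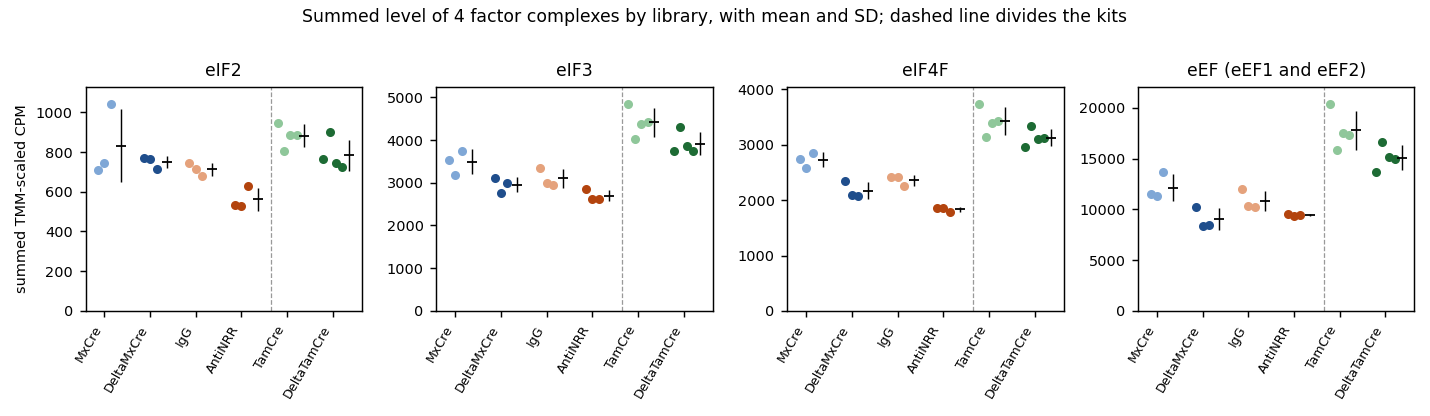
Summed TMM-scaled CPM of the eIF2, eIF3, eIF4F and eEF genes per library (points), with group mean and SD; the dashed line divides the SMARTer (n = 3 per group) from the TruSeq groups (n = 4). In AntiNRR the eIF4F sum (1788 to 1862 CPM) lies below the IgG libraries (2249 to 2426), and in DeltaMxCre the eIF2 sum lies within the MxCre range.

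Whether a factor responded differently to the perturbations was tested as the difference of their log2 fold changes, and no factor gene passed. DeltaMxCre against AntiNRR gave 0 calls of 63 (edgeR; 4 at an unadjusted p under 0.05; DESeq2 0; over all genes 1.23% were called and 12.5% had such an unadjusted p), DeltaMxCre against DeltaTamCre 0 (1 at an unadjusted p under 0.05; DESeq2 0; 0.166% and 6.79% over all genes) and AntiNRR against DeltaTamCre 0 (6 at an unadjusted p under 0.05; DESeq2 0; 0.698% and 11.8% over all genes). Eef2, which fell in DeltaMxCre and not in AntiNRR, had a difference of -0.38 with a 95% interval from -0.69 to -0.07 (edgeR adjusted p = 0.289). Eef1e1, which fell in AntiNRR and not in DeltaMxCre, had a difference of 1.24 with a 95% interval from 0.38 to 2.1 (edgeR adjusted p = 0.195). For Eif2c3, which was called in DeltaMxCre and not in AntiNRR, the difference from AntiNRR was 0.91 with a 95% interval from 0.36 to 1.46 (edgeR adjusted p = 0.121). A call in one comparison and not in the other is therefore not shown to be a difference between them for any of these genes.

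Translation genes outside the naming rule were read from the same fits, from a list of 36 (termination and recycling, poly(A) binding, mTORC1, eIF2 phosphatases, mitochondrial factors), of which 35 were tested. In DeltaMxCre and in DeltaTamCre 0 passed (edgeR; 9 and 7 of the 35 at an unadjusted p under 0.05, beside 16.5% and 16% of all genes), and in AntiNRR 2 fell and 0 rose, beside 4.06% of all genes called. These were Abce1, which splits ribosomes after termination (322 CPM in IgG and 211 in AntiNRR, -0.61 ± 0.11 SE, edgeR adjusted p = 0.000996), and Eefsec, the elongation factor for selenocysteine (63.5 and 41.7 CPM, -0.61 ± 0.17 SE, edgeR adjusted p = 0.0368). The median log2 fold change of the 35 was -0.11, -0.19 and -0.09 in DeltaMxCre, AntiNRR and DeltaTamCre, beside -0.03, -0.02 and 0.02 for all genes.

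The authors' own calls on these genes are given at q under 0.1, a looser threshold than the 0.05 used above. The shares of all genes beside them cover all 23284 genes listed, many too low to test, and not only the 13557 or 13460 tested above. They are therefore on another base than the shares given above. At that threshold the authors' deposited table had 7 falls and 1 rise among the 65 listed factor genes in DeltaMxCre, beside 2.86% falls and 2.6% rises over all 23284. The 8 include 2 of the 4 genes called above (Eif4a1 and Eif2c3). In AntiNRR the authors' deposited table had 12 falls and 1 rise (Eef2k), beside 3.59% and 4.4%, and these 12 include all 7 genes called above. In DeltaTamCre the authors' deposited table had 20 falls, 8 of them eIF3 genes, and 1 rise (Eif2c3), beside 3.67% and 2.83%. For Eef1a1, called here in DeltaMxCre, the authors' deposited table gives a fold of 0.739 at q = 0.518, for Eef2 a fold of 0.729 at q = 0.153 and for Eif4a1 a fold of 0.715 at q = 0.0516. At q under 0.05 the authors' deposited table has 2 factor genes in DeltaMxCre, 11 in AntiNRR and 11 in DeltaTamCre.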

How the data were processed

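RNA of 20 libraries was analysed from 2 deposited tables. The submitters' processing notes name FastQC 0.10.0, Bowtie2 2.1.0.0, TopHat2 2.0.9, Cufflinks, Cuffdiff 2.1.1 and the mm10 build; the sources used here do not state annotation, strand or counting options, so 16 members that overlap a protein-coding gene (13 on the opposite strand) and genes with near-identical copies are uncertain. The count table holds expected counts estimated by the authors (98.38% of values are whole), rounded here. The authors' deposited table holds, by its headers, FPKM values of the groups, none of them under 1 (34.0% of values are exactly 1), and the authors' fold ratios and q-values between groups. Library depth and a floor of 3 counts gave 0.157 to 0.254 CPM (SMARTer) and 0.0292 to 0.0551 CPM (TruSeq).

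edgeR 4.0.16 in R 4.3.3 (filterByExpr, TMM, robust quasi-likelihood fit) was fitted to whole tables: 12 SMARTer libraries, 8 TruSeq libraries, and all 20 for differences that involve DeltaTamCre. Adjusted p-values cover all genes tested and calls used a threshold of 0.05; SE is the log2 fold change over the root of F. The test was also run on counts simulated from its own fits with known changes. Such counts follow the model by construction, so this run does not check how well it describes the real counts. No member list was tested; counts and medians stand beside those of all genes. No 2 of 190 library pairs were identical or agreed within sampling noise (lowest chi-square per degree of freedom 17.2).

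The members and lists were chosen with earlier results of these data known. Values were to be given for every called member and for a list of 20 others whatever their result; further members were named after their values were seen. Alternatives were DESeq2 1.42.0, RLE scaling, no filter, other library sets, a replicate block and leaving out each library. Gene matches (66 of 66 by Entrez identifier, 5 under an older symbol) and promoters come from RefSeq, GRCm38.p6.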

Additional observations from a re-analysis of the deposited data

Results flagged for a closer look

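Eif2s3x, the X-linked eIF2 gamma gene, had 1 library far from the others of its group: DeltaTamCre 2 was at 467 CPM and the next highest DeltaTamCre library at 367, a gap of 0.876 of the group's whole range. Of 42 groups of 4 libraries examined this was the only one, and chance marks about 1 group in 20. DeltaTamCre 2 was also the deleted library whose median over the factor genes lay nearest the controls (-0.04). The cause was not tested.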

How the results depend on the processing

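The number of factor genes called moved with the fit, and their median did not change sign. In DeltaMxCre against MxCre, 4 calls became 9 with DESeq2 (Eif2c3 and 8 falls), 1 in a fit of the 2 groups alone (Eif2c3) and 6 in a fit of all 20 libraries, and stayed at 4 with RLE scaling and with no filter. In AntiNRR against IgG, 7 calls became 10 with DESeq2, 12 in a fit of the 2 groups alone and 8 both in a fit of all 20 libraries and with no filter. In DeltaTamCre against TamCre, DESeq2 called 5 and every other setting 0. Over all genes, calls went from 399 to 679 in DeltaMxCre, from 551 to 830 in AntiNRR and from 12 to 533 in DeltaTamCre with DESeq2, to 853, 1080 and 2 in a fit of all 20 libraries, and in DeltaMxCre to 183 in a fit of its 2 groups. Leaving out 1 library gave 0 to 7 calls in DeltaMxCre (7 without DeltaMxCre 1), 0 to 11 in AntiNRR and 0 in DeltaTamCre. Over all genes the same fits gave 138 to 434, 257 to 817 and 0 to 8 calls. The 11 came without MxCre 3, which is outside the antibody comparison but shares its filter, scaling and estimate of spread. The median of the tested factor genes ran from -0.29 to -0.17, from -0.22 to -0.12 and from -0.19 to -0.12. Of 18 settings each, Eif4a1 was called in 14 in DeltaMxCre (adjusted p 0.00197 to 0.138) and in 14 in AntiNRR (0.00126 to 0.0947), Eef1a1 in 14 (0.00374 to 0.169), Eef2 in 8 (0.0104 to 0.225) and Eif2c3 in 16 (0.0033 to 0.137). In AntiNRR, Eif1a and Eif2s1 were called in 15 each, Eif3b and Eif5a in 14, Eef1e1 in 13 and Eif4g1 in 10. With a replicate block 7, 10 and 0 members were called, and 0 of all genes in DeltaTamCre. Deviations of same-numbered libraries from their group means had correlations of -0.54 to 0.04. With so few libraries per group, these cannot settle whether same-numbered libraries had more than the number in common. The cause of these moves was not tested. In the SMARTer libraries the log2 fold changes of Eif4ebp1, Eif2b3 and Eef1e1 had SEs of 0.30 or more, and Eif4ebp1 had 18 to 176 counts per library.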
